A study of Mus musculus with 6 samples.

Results

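Clu encodes clusterin (apolipoprotein J), and its messenger RNA was measured here in mouse embryonic stem (ES) cells on their way to paraxial mesoderm. It is 1 of the 18193 genes that the arrays could name. All 4 probe sets annotated to Clu were taken. The gene was chosen by its measured change between day 3 and day 4 in these same arrays, so its levels and changes are given as a description, without a test. The cells were E14 ES cells of the 129P2/OlaHsd background with a Venus reporter of Msgn1 (Msgn1RepV), a gene of the presomitic mesoderm. They were grown on gelatin in serum-containing medium with 0.5% DMSO, 10 ng/mL recombinant R-spondin3, which strengthens Wnt signalling, and 200 ng/mL recombinant Noggin, which blocks BMP ligands. Cells positive for Venus were sorted at day 3 or at day 4, with 3 biological replicates of each day and 1 array per replicate. Both days thus share the line, the medium and the reporter gate, and the labels name no difference but the day of sorting. They give 2 ways of RNA extraction without saying which sample had which. One reporter line was used, and undifferentiated ES cells and Venus-negative cells are not part of this comparison. The labels do not say whether replicates came from separate differentiations, and if they did not, the p-values below measure a spread that may be technical.

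Clusterin is a secreted, heavily glycosylated protein that is cut into an α and a β chain held together by disulphide bonds. It keeps unfolding proteins soluble outside the cell, travels with lipoprotein particles and limits the terminal complement complex. Receptors of the LDL receptor family take it up. In adult tissues it is abundant in epithelia that line fluid-filled spaces and rises after stress or injury, and some of it stays inside the cell.

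The Clu signal was between 4 and 6 times as high at day 4 as at day 3 on every probe set. Probe set 1454849_x_at, which had the highest mean log2 signal and stands for the gene below, read 675, 603 and 572 on day 3 replicates 1, 2 and 3. On day 4 replicates 1, 2 and 3 it read 2738, 2827 and 2806. Every day 4 array thus lay far above every day 3 array, and the lowest day 4 value was 4.06 times the highest day 3 value. The means were 617 ± 52.7 and 2790 ± 46.8 (SD, n = 3 arrays; later means with ± carry the same SD and n). The log2 change, day 4 minus day 3, was 2.18 ± 0.07 (SE from the spread within days), a ratio of 4.53. A higher signal per cell and a larger share of Clu-rich cells in the sorted pool cannot be told apart in such bulk RNA.

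Probe set 1437689_x_at read 582, 562 and 538 on the day 3 arrays, and its day 4 readings were 2532, 2754 and 2644. Its change was 2.24 ± 0.05. Its day 3 values were the most even of the 4, with an SD of 0.06 on the log2 scale. Probe set 1437458_x_at read 591, 539 and 455 on the day 3 arrays and 2121, 2488 and 2294 on those of day 4, a change of 2.13 ± 0.13. Probe set 1418626_a_at read 270, 185 and 190 on the day 3 arrays and 1013, 1170 and 1114 on those of day 4. It had the largest change, 2.37 ± 0.19, and also the widest scatter at day 3 (SD 0.30 on the log2 scale), where replicate 1 was well above the other two arrays. In none of the 4 probe sets did the days overlap. The lowest day 4 value was 3.59 to 4.35 times the highest day 3 value. For the genes tested, 20.7% had 3 day 4 values that all exceeded the 3 day 3 values.

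**Figure D1:**
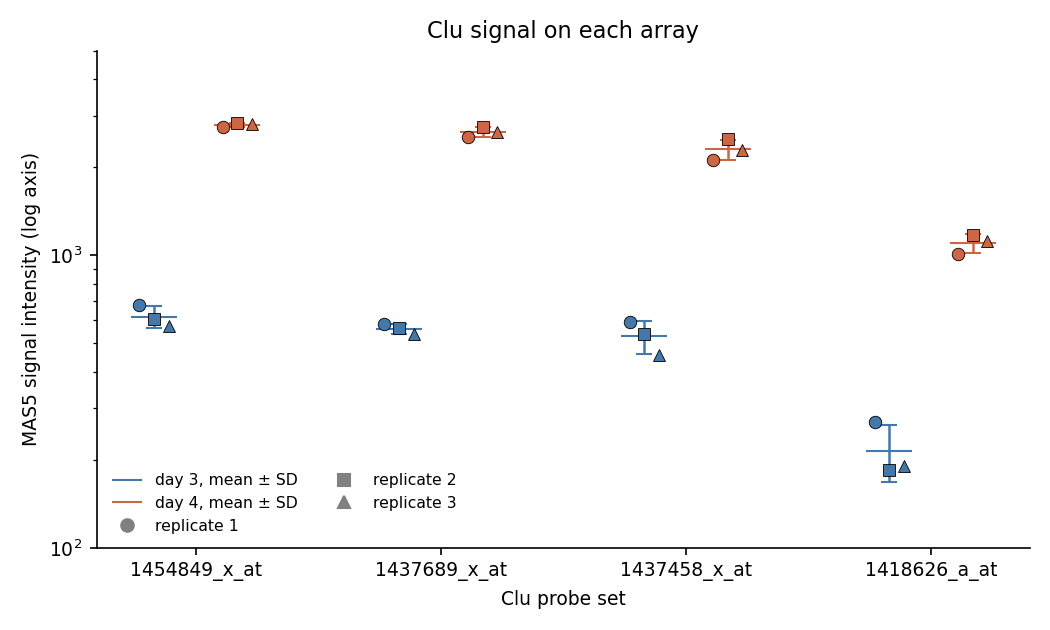
MAS5 signal intensity of the 4 Clu probe sets on a log axis. Points are arrays, shaped by replicate, and bars give the mean ± SD of 3 arrays per day. Day 4 lies above day 3 for each probe set, from 3.59 to 4.35 times when its lowest array is set against the highest day 3 array.

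The probe sets agreed closely. Their 4 changes spanned 0.25 on the log2 scale, from 2.13 to 2.37. Among 1053 other genes with at least 4 probe sets above the signal filter, the median span was 0.69, and 93.4% of these genes had a wider span than Clu. Only 348 of them had every such probe set changing in 1 direction. Of those 1053 genes, 10 had a mean change of at least 1 on the log2 scale, and their median span was 1.39, with 0 of the 10 below that of Clu. These genes were not matched to Clu in number of probe sets or in signal. A span can widen with more or dimmer probe sets. The span of Clu depended on single day 3 arrays. It was 0.34 without day 3 replicate 1 and 0.13 without day 3 replicate 2. The suffix _x_at marks probe sets with probes that may also bind other transcripts, and _a_at marks probes shared by transcripts of 1 gene. Probe sets of a gene can cover the same stretch of RNA, so the 4 are not independent measurements. Their levels are not set against each other, since probe sets differ in how well they bind.

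Small differences between replicates were also shared by the probe sets. Day 3 replicate 1 was above the day 3 mean in 4 of 4 probe sets, by 0.05 to 0.35 on the log2 scale. Day 3 replicate 3 was below it in all 4, by 0.06 to 0.21. At day 4, replicate 2 was above the mean in all 4 (by 0.02 to 0.12) and replicate 1 was below it in all 4 (by 0.03 to 0.11). Over the 6 arrays, Pearson correlations of log2 signal between pairs of Clu probe sets ran from 0.992 to 0.999. After each day's mean was subtracted they ran from 0.752 to 0.958. Both are descriptions, since all probe sets read the same 6 RNA samples and the first range also holds the difference between days.

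Across all arrays, Pearson correlations of log2 signal were 0.933 to 0.948 within a day and 0.924 to 0.939 between days. Day 4 replicate 1 stood apart in RNA quality. The Gapdh probe sets at the 3′ and 5′ ends gave a ratio of 14.04 there and of 2.43 to 3.19 on the other arrays. The corresponding Actb ratios were 6.71 and 2.77 to 3.84. This array held the lowest day 4 value of every Clu probe set. Without it the change of Clu was 2.19 on the main probe set and 2.19 to 2.43 on the others. The replicate spread of Clu was small on its main probe set. The within-day SD there was 0.09 on the log2 scale, against a median of 0.18 over the 12285 genes tested. That median takes in genes much dimmer than Clu. On 1437689_x_at, 1437458_x_at and 1418626_a_at the SD was 0.06, 0.16 and 0.23, the last above the median. By size of rise, Clu ranked 22 among the 12285 genes tested, 33 of which were higher at day 4 by at least 2 on the log2 scale. The next gene above it was Scara3 and the next below it Myom2, with changes of 2.24 and 2.18. The median change of all genes tested was -0.01.

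**Figure D2:**
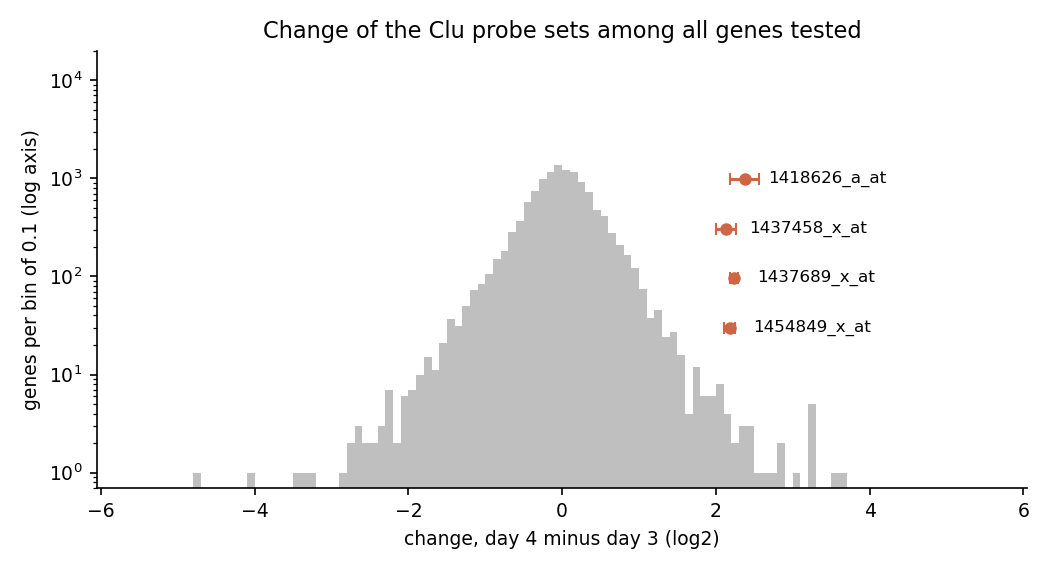
Histogram of the change from day 3 to day 4 (log2) of the 12285 genes tested, with a log axis for the number of genes. Points mark the 4 Clu probe sets with their SE, at arbitrary height, and all lie between 2.13 and 2.37, in the thin right tail.

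The genes whose pattern over the 6 arrays was nearest to that of Clu were Id2, Txnip, Prdm6, Serpinb6b, Lcorl and Klf10. Likeness was the root mean square difference of log2 signals after each gene's mean was subtracted, and ran from 0.12 for Id2 to 0.16 for Klf10. As these genes were picked for their likeness, no test is given. Id2 encodes an inhibitor of basic helix-loop-helix factors and read 82.6, 94.7 and 80.4 on the day 3 arrays and 348, 350 and 369 on those of day 4. Txnip, the thioredoxin-interacting protein that restrains glucose uptake, read 335, 381 and 308 on the day 3 arrays and 1495, 1773 and 1689 on those of day 4. In both genes the days did not overlap, with changes of 2.05 ± 0.12 and 2.28 ± 0.11 (limma SE, as for all changes of other genes). Prdm6, a PR-domain transcriptional repressor, read 180, 192 and 155 on the day 3 arrays and 930, 909 and 823 on those of day 4. Klf10, a zinc finger gene induced by TGF-β, read 146, 185 and 161 on the day 3 arrays and 667, 752 and 765 on those of day 4. Serpinb6b, an intracellular serine protease inhibitor, was at 19.2 ± 0.67 and 83.5 ± 8.90. Lcorl was at 51.2 ± 3.25 and 192 ± 6.24. Pearson correlations of these 6 genes with Clu were 0.989 to 0.997 over the 6 arrays, given as a description since all 6 also share the difference between days.

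**Figure D3:**
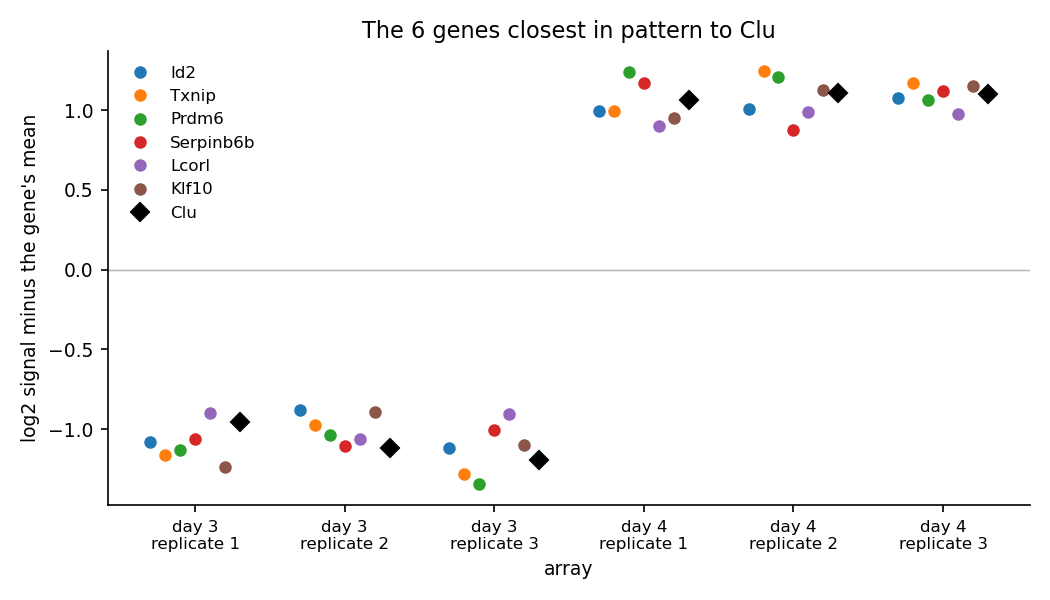
Log2 signal minus each gene's own mean, for Clu (black diamonds) and the 6 genes nearest to it, on each of the 6 arrays. All 7 genes lie below 0 on the 3 day 3 arrays and above 0 on the 3 day 4 arrays.

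Scara3, a scavenger receptor gene, lies directly beside Clu in the RefSeq gene order. The comparison of chromosomal neighbours was added after the values of Clu had been seen. Scara3 read 16.9, 26.3 and 34.5 on the day 3 arrays and 122, 115 and 114 on those of day 4. Its days were far apart, although its day 3 arrays were dim and uneven. It rose by 2.24 ± 0.25 (limma adjusted p = 0.000336), close to the 2.18 of Clu, and kept its call under all 14 alternatives run on it, with adjusted p up to 0.00486. The change of Clu itself carries no test, for the reason given above. Of the 8 nearest protein-coding neighbours, 4 on each side, 6 were tested. By limma at an adjusted p under 0.05, 3 were higher and 0 lower at day 4, against 11.5% higher and 10.7% lower (22.2% in all) over all genes tested, and all 3 lay on the side of Scara3. Pbk, a mitotic kinase, rose by 0.50 ± 0.08 from 1055 ± 66.2 to 1491 ± 70.3 (limma adjusted p = 0.00235). Esco2, which acetylates cohesin, rose by 0.44 ± 0.12 (limma adjusted p = 0.0244), a call lost in 7 of 14 alternatives. Ccdc25 did not pass, at 37.4 ± 9.48 and 54.4 ± 8.16. On the other side Gulo, an enzyme of vitamin C synthesis, was at 19.4 ± 4.38 and 14.6 ± 2.19, and the epoxide hydrolase Ephx2 at 51.7 ± 0.95 and 52.8 ± 11.5. Neither passed (limma adjusted p = 0.448 and 0.981), and the direction of Ephx2 flipped with quantile normalization and with median centring (-0.073 and -0.024). Adam2 and Chrna2 lay under the signal filter and were not tested.

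**Figure D4:**
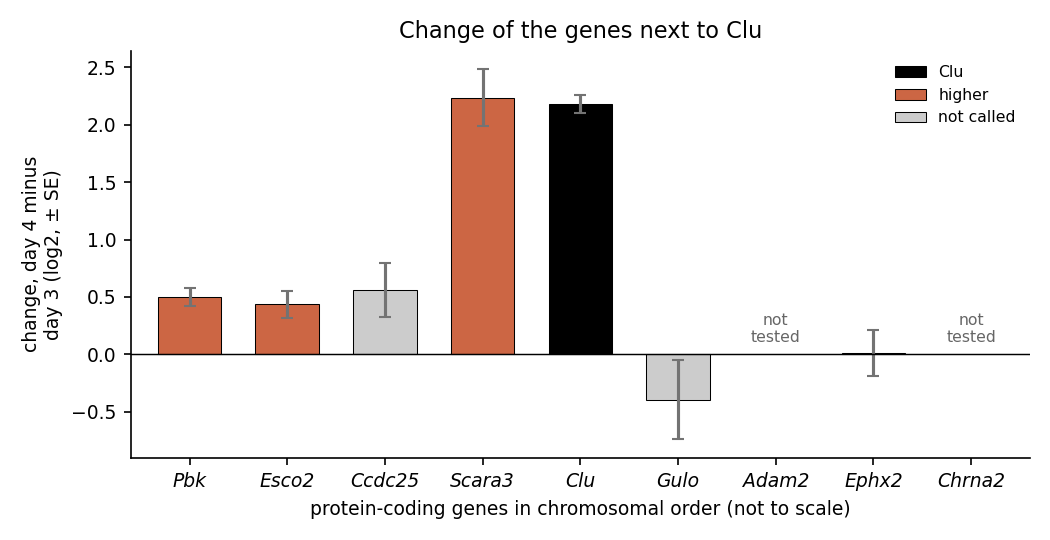
Change from day 3 to day 4 (log2, with limma SE) of Clu and the 4 protein-coding genes on each side, in chromosomal order and not to scale. Clu (2.18) and Scara3 (2.24) stand far above the rest, whose changes lie between -0.40 and 0.56.

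Receptors that take up clusterin changed unevenly. Of 10 genes on a list of receptors and uptake factors, 7 were tested, 2 rose and 1 fell (median change 0.18). Over all genes tested 22.2% were called, 11.5% as higher and 10.7% as lower, and with 7 genes the count of falls is near that background. Vldlr, the very low density lipoprotein receptor, read 676, 770 and 715 on the day 3 arrays and 1268, 1393 and 1221 on those of day 4. Its days did not overlap. It rose by 0.85 ± 0.09 (limma adjusted p = 0.000241), and its 6 probe sets above the filter changed by 0.56 to 1.13. Lrp1, an endocytic receptor of the same family, read 200, 156 and 181 on the day 3 arrays and 318, 303 and 304 on those of day 4, and rose by 0.79 ± 0.12 (limma adjusted p = 0.00172). Lrpap1, the chaperone that keeps these receptors free of ligand during their synthesis, fell by 0.46 ± 0.10 from 1091 ± 71.7 to 797 ± 79.4 (limma adjusted p = 0.00922). That call was lost without day 3 replicate 3 (adjusted p = 0.0542), and 2 genes of the list were lower without day 3 replicate 1. Lrp8, the apolipoprotein E receptor 2, did not pass, with 117 ± 13.5 and 133 ± 21.8. Lrp2 (megalin), the receptor best known for clusterin uptake in epithelia, was dim at 18.2 ± 6.14 and 20.1 ± 5.62 and did not pass. For both, the mean over their probe sets went the other way (-0.21 for Lrp8 and -1.03 for Lrp2), and the Lrp2 change was also below 0 without day 3 replicate 1 or day 4 replicate 3. Trem2, a lipid receptor of myeloid cells, was under the filter on both days (8.49 ± 6.57 and 3.38 ± 0.10).

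Among the other apolipoproteins and lipid carriers, the only calls were 2 falls. Of 13 genes on that list, 6 lay above the filter and were tested, and 7, among them Apoa1, Apoa2 and Apod, were under it. By limma, 0 rose and 2 fell (0 and 2 also at an unadjusted p under 0.05, median change -0.11). With 11.5% of all genes higher, 0 of 6 is near the background and is no result about the list. The 2 of 6 lower stand against 10.7% of all genes, a small count from few genes. Lpl, the lipoprotein lipase, fell by 1.43 ± 0.27 from 89.7 ± 7.21 to 35.0 ± 14.7 (limma adjusted p = 0.00519). Averaged over all its probe sets, of which only 1 lay above the filter, the adjusted p was 0.721. Apob, the structural protein of large lipoproteins, fell by 1.31 ± 0.37 from 34.4 ± 10.7 to 14.1 ± 4.68 (limma adjusted p = 0.0311). Its day 4 mean lay near the filter level of 13.5, and its call was lost in 5 of 13 alternatives. Apoe, which had a clear signal, was at 481 ± 36.7 and 709 ± 347 and did not pass (limma adjusted p = 0.381). It read 496, 439 and 508 on the day 3 arrays and 343, 753 and 1033 on those of day 4. The low value came from day 4 replicate 1, the array that stood apart in RNA quality. The other day 4 arrays lay above every day 3 array. Without day 4 replicate 1, 1 gene of this list was higher. Without any 1 of the day 3 arrays, 1 gene was lower in place of 2.

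Complement genes were mostly dim. Of 16 listed, 6 were tested, 1 rose and 0 fell by limma (1 and 1 at an unadjusted p under 0.05, median change -0.05), near the 11.5% and 10.7% of all genes. The riser was Serping1, an inhibitor of the first complement component, at 35.2 ± 2.03 and 63.4 ± 4.51, a change of 0.85 ± 0.17 (limma adjusted p = 0.00772). Most measured components of the terminal complex that clusterin restrains were hardly above 0, C8a, C8b and C9 having means between 1.81 and 3.08 on both days. C8g, the γ chain of the same complex, read 7.96, 2.11 and 6.46 on the day 3 arrays and 30.1, 35.9 and 26.4 on those of day 4. Its days did not overlap, but its mean signal was under the filter and it was not tested. Without day 4 replicate 1, 1 complement gene was lower.

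Most tested genes of the chaperone list were lower at day 4, where Clu was higher. The list held mainly heat shock proteins and chaperones of the endoplasmic reticulum, and 16 of its 17 genes were tested. The remaining gene, A2m, encodes a secreted protein and was under the filter. By limma 10 fell and 0 rose (12 and 2 at an unadjusted p under 0.05), with a median change of -0.47 against -0.01 over all genes tested. The 2 higher only at an unadjusted p were Bag3 and Herpud1, which are not heat shock proteins or endoplasmic reticulum chaperones themselves. The 10 of 16 lower stand against 10.7% of all genes. Hspa1b, an inducible HSP70, read 336, 413 and 420 on the day 3 arrays and 140, 162 and 156 on those of day 4. It fell by 1.35 ± 0.12 (limma adjusted p = 0.000137). Its near-identical copy Hspa1a can share probes with it, so the 2 are not separate evidence. Hspb1, the small heat shock protein HSP25, read 978, 755 and 752 on the day 3 arrays and 404, 323 and 325 on those of day 4, and fell by 1.24 ± 0.13 (limma adjusted p = 0.000302). In both genes the days were separated, with day 4 low. Pdia3, a disulphide isomerase, fell by 0.80 ± 0.09 from 1230 ± 89.6 to 708 ± 35.8, and calreticulin, Calr, by 0.52 ± 0.06 from 3886 ± 184 to 2702 ± 14.1 (limma adjusted p = 0.00031 and 0.000416). All 4 kept their calls in the 14 alternatives run. The count of falls was 8 to 12 when single arrays were left out, and 1 member was higher without day 3 replicate 1.

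Factors described as regulators of Clu showed a mixed picture. Of 20 listed, 15 were tested, 5 rose and 1 fell (median change 0.11). The rises stand against 11.5% of all genes, and the single fall is near the 10.7% lower. Egr1, an immediate early zinc finger factor, rose by 0.90 ± 0.09 from 978 ± 114 to 1812 ± 13.1 (limma adjusted p = 0.000208). Jun, a subunit of AP-1, rose by 0.64 ± 0.13 from 95.3 ± 6.10 to 149 ± 16.9 (limma adjusted p = 0.00867). Smad3, which carries TGF-β signals, rose by 0.59 ± 0.12 on its main probe set (limma adjusted p = 0.0081), but the mean over its probe sets was -0.28. Mycn, another of the 5 risers, rose by 0.25 ± 0.06 on its main probe set (limma adjusted p = 0.0169). Its 3 probe sets above the filter changed by -0.49 to 0.99. Xbp1, a factor of the unfolded protein response, fell by 0.70 ± 0.09 from 971 ± 17.05 to 602 ± 63.4 (limma adjusted p = 0.00103). Hsf2, a heat shock factor, did not pass at 49.0 ± 10.5 and 48.4 ± 8.998, with a change of -0.01 ± 0.22 whose sign varied with single arrays. The count of risers was 3 without day 3 replicate 2, day 3 replicate 3 or day 4 replicate 3.

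Partners of the intracellular form of clusterin gave 1 rise and 2 falls among 8 tested of 9 listed (median change -0.10), near the 22.2% of all genes called. Stmn3, a tubulin-binding protein, fell by 1.97 ± 0.50 from 35.9 ± 2.87 to 11.1 ± 8.96 (limma adjusted p = 0.0199), a change measured into the range of the filter. Tgfbr2, a TGF-β receptor, rose by 0.57 ± 0.15 (limma adjusted p = 0.0237). Its change was -0.01 with the mean over all its probe sets, of which only 1 lay above the filter. Xrcc5, the Ku80 subunit of DNA repair, fell by 0.41 ± 0.12 (limma adjusted p = 0.0404). All 3 calls were lost in 4 or more of their alternatives. No riser was called without day 3 replicate 2 or 3, and the number of falls was 0 without any 1 of the day 3 arrays or day 4 replicate 2, and 1 without day 4 replicate 3.

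Genes that accompany Clu in injured or fetal-like intestinal epithelium were called only as lower. Of 20 listed, 12 were tested, and by limma 7 fell and 0 rose (7 and 0 also at an unadjusted p under 0.05, median change -0.41), against 10.7% of all genes lower and 11.5% higher. The keratin Krt18, which is also on the surface epithelium list below, fell by 1.04 ± 0.09 from 1527 ± 50.4 to 744 ± 81.5 (limma adjusted p = 0.000125). The annexins Anxa1 and Anxa3 fell by 0.95 ± 0.14 and 0.69 ± 0.12 (limma adjusted p = 0.00185 and 0.00319). Anxa1 was not called with the mean over all its probe sets (limma adjusted p = 0.0952), of which only 1 lay above the filter. Anxa2 fell by 0.47 ± 0.10 (limma adjusted p = 0.0091), and was at 0.07 with the mean over its probe sets. Ccn1, another of the 7, fell by 0.40 ± 0.13 on its main probe set (limma adjusted p = 0.0469). Its 4 probe sets above the filter changed by -0.40 to 1.62. The count of falls was 4 without day 3 replicate 1, 2 or 3 or day 4 replicate 2.

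**Figure D5:**
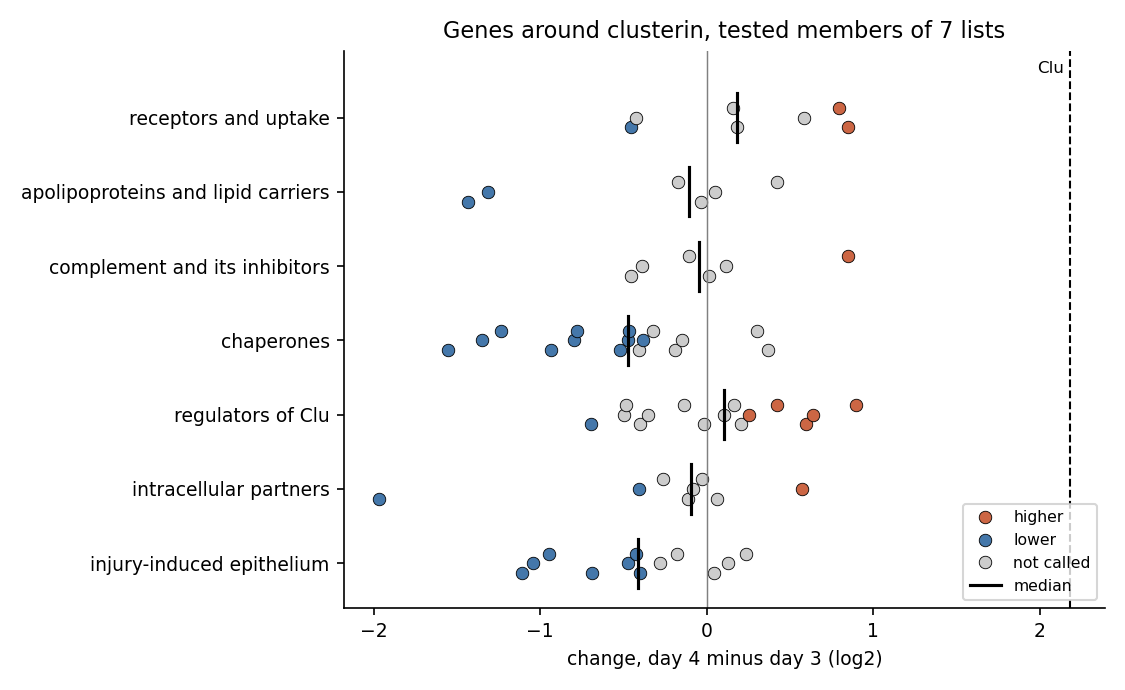
Change from day 3 to day 4 (log2) of the tested members of 7 gene lists around clusterin. Orange points passed as higher, blue as lower and grey did not pass (limma, adjusted p under 0.05), black bars are list medians, and the dashed line is Clu at 2.18. No tested member of these lists reached the change of Clu, and 10 of 16 members of the chaperone list lie below 0 with a call.

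All 7 listed markers of the sorted tissue had a mean signal over the arrays above the filter, which is not a detection call. Some were dim. Lfng read 3.53 on day 3 replicate 1, and Msgn1 was at 33.2 ± 7.06 at day 4. Rspo3, a Wnt potentiator of the presomitic mesoderm, rose by 1.08 ± 0.08 and Msgn1 fell by 1.17 ± 0.24 (limma adjusted p = 5.09e-05 and 0.00723), and 5 of the 7 listed markers did not pass. Lists of markers named for other cell types are given next, and their counts stand against 11.5% of all genes higher and 10.7% lower.

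The surface epithelium list holds genes of epithelia in general and cannot tell epithelial cell types apart. By limma 7 of its 8 tested genes fell, with 0 higher (8 and 0 at an unadjusted p under 0.05). The summed signal of the list ran from 10796 to 11605 at day 3 and from 4654 to 4788 at day 4. The keratins Krt8 and Krt19 and the adhesion gene Epcam fell, with changes of -1.23 ± 0.08, -1.70 ± 0.11 and -1.22 ± 0.08 (limma adjusted p = 1.94e-05, 2e-05 and 2.66e-05). The epithelial splicing regulator Esrp1 fell from 255 ± 17.8 to 70.9 ± 6.57 (limma adjusted p = 2.57e-05). Pluripotency genes fell in 4 of 8 by limma, with 0 higher (4 and 0 at an unadjusted p under 0.05), and summed to 1959 to 2168 and then 888 to 998. Fgf5, a growth factor of the primed epiblast, fell from 517 ± 23.1 to 113 ± 10.6 and Pou5f1, a core pluripotency factor, from 622 ± 44.3 to 165 ± 2.53 (limma adjusted p = 5.64e-06 and 6.05e-06). Nanog fell from 221 ± 19.7 to 73.6 ± 22.99 and Sox2 from 155 ± 47.5 to 90.5 ± 17.03 (limma adjusted p = 0.000738 and 0.0389), and the call of Sox2 was lost in 7 of 14 alternatives. Of 8 tested endoderm genes 3 fell and 1, Gata4, rose, and the list summed to 781 to 809 and then 574 to 628. Gata6 fell from 394 ± 24.9 to 202 ± 22.6, Foxa2 from 51.5 ± 3.79 to 25.5 ± 3.01 and Sox17 from 72.2 ± 22.9 to 20.2 ± 10.8 (limma adjusted p = 0.000535, 0.00747 and 0.00956), so endoderm factors were above the filter on both days. The call of Gata6 was lost with the mean over its probe sets (adjusted p = 0.161) and that of Sox17 without day 3 replicate 1 (adjusted p = 0.051). The rise of Gata4 was lost in 9 of 14 alternatives, and 0 genes were higher without any 1 of the arrays other than day 4 replicate 1. Afp, Ttr and Cubn, which mark visceral endoderm, had means of 1.87 to 7.17 on both days, under the filter. Other genes of that list lay above the filter and were not called. Dab2 had a clear signal, at 131 ± 19.2 and 139 ± 29.0. Amn was dim at 20.7 ± 3.11 and 15.6 ± 2.73, as was Hnf4a at 18.8 ± 10.6 and 14.5 ± 3.97. Neural genes gave no call in 3 tested (limma, 0 higher and 1 lower at an unadjusted p under 0.05), with sums of 67.1 to 93.1 and then 53.8 to 69.8. Cardiac and lateral plate markers were called only as higher. By limma 3 of 8 rose and 0 fell (3 and 0 also unadjusted), and their summed signal ran from 1001 to 1081 at day 3 and from 1485 to 1573 at day 4. Hand2, a transcription factor of lateral mesoderm, rose by 2.31 ± 0.30 from 25.3 ± 12.2 to 116 ± 1.77 (limma adjusted p = 0.000785). Averaged over all its probe sets, of which only 1 lay above the filter, the adjusted p was 0.92. The LIM homeobox gene Isl1 rose by 1.16 ± 0.10 and the atrial light chain Myl7 by 0.94 ± 0.20 (limma adjusted p = 0.000107 and 0.00872). Nkx2-5, Tbx5 and Tnnt2 stayed dim with means of 14.1 to 26.9 on both days and did not pass. The arrays of Tbx5 were uneven, from 5.46 to 41.7. Myl7, also a gene of heart cells, was brighter at 41.1 ± 0.28 and 80.5 ± 18.7. In the vascular and blood list 1 of 5 tested genes rose and 1 fell, the riser being Kdr, a VEGF receptor, with a change of 1.19 ± 0.14 (limma adjusted p = 0.000522). Etv2, a factor of early blood and vessel progenitors, fell from 342 ± 22.2 to 180 ± 33.8 (limma adjusted p = 0.00196). With 5 genes, both counts are near the background. That list summed to 598 to 622 at day 3 and 624 to 884 at day 4. The part of these cells in the Clu signal was not tested.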

How the data were processed

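The deposited values are linear signal intensities of 45101 probe sets on 6 arrays, made by the authors with MAS5 per the submitters' processing notes. The sources used here do not give the scaling target, detection calls or software version. Per the labels' protocols, RNA was amplified in 2 cycles into biotinylated cRNA, which favours 3′ ends. Trimmed means of the arrays spanned 1.09%, so no scaling was added. The number of arrays limits the precision.

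Probe sets were named from the platform annotation (34945 with 1 symbol; 932 with several were left out; 9211 were not listed), and 34741 matched a RefSeq gene of GRCm38.p6. Each gene was represented by its brightest probe set (mean log2). The 12285 genes above the 40th percentile of mean signal (13.5) were fitted across all 6 arrays with day as the only term (R 4.3.3, limma 3.58.1, lmFit and eBayes with trend), 2-sided, with Benjamini-Hochberg adjustment over all genes tested and a threshold of 0.05. The fit was tested on simulated data. For Clu, the SE comes from the pooled within-day SD.

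Clu and the 14 gene lists were chosen with earlier results of these data known. Genes are named by rule: all Clu probe sets, Lrp2, Lrp8, Vldlr, Trem2, the heat shock factors analysed here, up to 4 called members per list with the smallest p, and the 6 nearest patterns without clone names. Others are named as examples, chosen after their values were seen. Alternatives were an offset before log2, quantile normalization, median centring, no filter, the 60th percentile, the mean over probe sets, a replicate block, no trend, and leaving out each array. The mean over probe sets took in every probe set of a gene, also those under the signal filter. The protein and promoter of Clu are not analysed here.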

Additional observations from a re-analysis of the deposited data

How the results depend on the processing

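The change of Clu on its main probe set stayed within 1 within-day SD of 2.18 under all alternatives run on it: 2.17 with an offset, 2.20 with quantile normalization, 2.15 with median centring, 2.23 as the mean over its probe sets, and 2.13 to 2.25 when single arrays were left out. The span of the probe sets' changes was 0.13 to 0.34 when single arrays were left out. The count of genes called, 2729, was 1756 with the mean over probe sets and 1582 to 3530 when single arrays were left out (lowest without day 3 replicate 3, highest without day 4 replicate 1). Same-numbered replicates did not deviate together (correlations of 0.07, 0.01 and -0.00051), and not every array correlated best with its own number. With a replicate block 2884 genes were called, the change of Clu was the same by construction, and 1 intracellular partner was lower. With the mean over probe sets, 2 receptor genes, 0 lipid carriers, 2 regulators, 1 intracellular partner and 3 injury genes were lower, and 3 regulators, 0 intracellular partners and 1 injury gene were higher. That setting also turned Smad3 (-0.28), Tgfbr2 (-0.014), Anxa2 (0.073), Lrp2 (-1.03), Lrp8 (-0.21) and Hsf2 (0.11). Of these, Tgfbr2 and Hsf2 each had only 1 probe set above the filter. Without a filter, 1 lipid carrier was lower and 2 complement genes were higher. At the 60th percentile, 1 lipid carrier and 1 intracellular partner were lower. Without trend, 1 gene of the chaperone list and 3 regulators were higher, and 0 intracellular partners were higher and 1 lower. When single arrays were left out, receptors had 0 to 2 lower, lipid carriers 0 to 1 higher and 1 to 2 lower, complement genes 0 to 1 lower, chaperones 0 to 1 higher, regulators 3 to 5 higher, intracellular partners 0 to 1 higher and 0 to 2 lower, and injury genes 4 to 8 lower. Signs near 0 turned for Ephx2 (-0.073 with quantile normalization, -0.024 with median centring), Lrp2 and Hsf2. When single arrays were left out, Ephx2 ran from -0.13 to 0.19, Lrp2 from -0.060 to 0.42 and Hsf2 from -0.13 to 0.15. The cause was not tested. Without detection calls, the filter level of 13.5 limits what dim genes such as Lrp2 and the complement components can show.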
